A study of Mus musculus with 4 samples.

Results

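Conventional CD4 T cells of mouse lung and lung tumor were chosen from raw UMI counts (unique molecular identifiers, 1 per captured transcript) by a fixed rule. A cell was kept with at least 1 UMI of Cd3e, Cd3d or Cd3g and at least 1 of Cd4, and with 0 UMIs of Foxp3, Cd8a, Cd8b1, Trdc, Csf1r and Csf3r. The rule took 525 of 13344 cells, and the genes it used are given as a description only. The study sorted live CD45-positive cells from C57BL/6 mice and made 1 droplet library (10x Genomics, 3' ends) for each of 4 groups, all at day 14. The groups were lung tumor of Rab37 KO mice, lung tumor of WT mice, normal lung of Rab37 KO mice and normal lung of WT mice. Tumor mice had received LLC (Lewis lung carcinoma) cells and the normal lung groups Matrigel, per the labels. With 1 library per group, differences between libraries have no replicate check and no p-value, and intervals between them cover counting error only. The number of animals behind each library is not stated in the labels.

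Conventional CD4 T cells recognise peptides on MHC class II molecules through the T cell receptor, with the coreceptor CD4, and help other immune cells through CD40 ligand and cytokines. Naive cells recirculate through lymph nodes guided by the chemokine receptor Ccr7, while memory and effector cells enter tissues such as lung and can stay there. Rab37, the deleted gene, encodes a small GTPase of vesicle transport.

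The members' other T cell genes matched the label. Trac, the constant region of the T cell receptor alpha chain, had 681 CPM (UMIs summed over a library's members and scaled to a common total) in tumor KO members, 226 in tumor WT, 436 in normal KO and 460 in normal WT, against 1.57 to 3.78 CPM in B cells of the normal libraries. Trbc2, the beta chain constant region, had 1265, 637, 1214 and 1102 CPM in the same order, and the costimulatory receptor Cd28 had 542, 184, 613 and 511 CPM. After each cell was thinned at random to 1500 UMIs, a UMI of Trac, Trbc1 or Trbc2 was found in 91.7% of tumor KO members, 90.0% of tumor WT, 93.3% of normal KO and 87.4% of normal WT. Single markers of other lymphocytes were low. Cd79a of B cells had 27.8, 0, 37.4 and 45.2 CPM. The gamma-delta constant gene Tcrg-C1 had 0, 0, 13.2 and 2.03 CPM, and Ncr1 of NK cells 0, 0, 0.733 and 11.5 CPM. Ncr1 did not stand for the other NK cell markers in tumor KO. The NK cell marker list summed to 319.8 CPM (23 UMIs) in tumor KO members, 0 CPM in tumor WT and 81.7 CPM in normal WT. At least 1 tumor WT member went against the label. It held 39328 UMIs, 55.7% of that library's member UMIs, with 0 UMIs of Trac and Trbc2, 1 of Cd4, 93 of the matrix gene Dcn, 56 of the collagen gene Col3a1 and 1080 of S100a6. The same cell held 28 UMIs of Rhox5, 11 of Hmga2 and 7 of the keratin Krt18, each at 0 in the library's other members. The next largest member of that library held 5490 UMIs. Tumor gene ratios that move with the cell of 39328 UMIs are given also without the largest cell of each library. Tumor WT shares of cells count that cell as 1 of 10. Single members of other libraries also held most UMIs of some genes of other cell types. In normal KO all 71 UMIs of Dcn were in 1 cell, and 4 of 140 Spp1 UMIs lay outside 1 cell. In tumor KO 19 of 230 Cst3 UMIs lay outside 1 cell. Marker sums of epithelial, dendritic, macrophage and NK cells are given with the comparisons below.

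Most members lay at the edge of the rule. Exactly 1 Cd4 UMI was found in 7 of the tumor KO members (58.3%), 8 of the tumor WT (80.0%), 134 of the normal KO (59.6%) and 185 of the normal WT (66.5%). In normal KO lung, members with 1 Cd4 UMI had 437 CPM of Trac and those with 2 or more had 435. In normal WT lung the same values were 401 and 570 CPM. Other genes differed between members with 1 and with 2 or more Cd4 UMIs. Gzma, a granzyme, had 86.1 and 27.9 CPM in normal KO and 141 and 48.0 CPM in normal WT. Ctla4 had 115 and 230 CPM in normal KO and 167 and 288 CPM in normal WT. The cytotoxic gene Nkg7 had 180 and 256 CPM in normal KO and 236 and 173 CPM in normal WT. Cells just outside, which met the rule but for a Cd4 count of 0, numbered 36, 33, 480 and 658 in tumor KO, tumor WT, normal KO and normal WT. They had 375 CPM of Trac and 401 of the granzyme Gzma in normal KO lung, against 86.1 of Gzma in members with 1 Cd4 UMI. Cells with Cd3 and Cd4 left out for a Foxp3 UMI numbered 5, 3, 18 and 15. Cd4 itself (ENSMUSG00000023274) lies on the minus strand of chromosome 6 at 124864692 to 124888221 in mm10 (GENCODE vM21).

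Depth was similar in the median. The members held 71909, 70641, 1364388 and 1481370 UMIs in tumor KO, tumor WT, normal KO and normal WT, with medians of 5059, 3760, 4985 and 4465 UMIs per cell. Scrublet called 0, 0, 4 and 11 members doublets, and 8, 5, 46 and 75 members carried 3 or more UMIs of B cell, macrophage, neutrophil or dendritic cell markers. The libraries shared at most 8 barcodes with each other, and no member's barcode was among them. All tumor KO members with a sex-linked UMI (9 of 12) had Y-linked transcripts alone, and all such tumor WT members (7 of 10) had Xist alone, so genotype and sex cannot be told apart in tumor. Both normal libraries mixed the sexes, with 86 Xist-only and 65 Y-only members in KO and 117 and 75 in WT. The software version in the file headers differed between tumor and normal libraries as well, and cannot be told apart from tissue.

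Conventional CD4 T cells made up a smaller share of the sorted cells in tumor than in normal lung in both genotypes, while the 2 normal lung intervals overlapped. They were 0.440% of cells in tumor KO (12 of 2729, exact Clopper-Pearson 95% interval 0.227% to 0.767%) and 1.55% in tumor WT (10 of 647, 0.744% to 2.82%). In normal lung they were 4.76% in KO (225 of 4726, 4.17% to 5.41%) and 5.30% in WT (278 of 5242, 4.71% to 5.94%). Among cells with a Cd3 UMI the gap was narrower. There the share was 5.17% in tumor KO (2.70% to 8.86%) and 9.17% in tumor WT (4.49% to 16.2%), against 12.6% in normal KO (11.1% to 14.2%) and 13.5% in normal WT (12% to 15.0%). The tumor KO interval lay below both normal lung intervals, while the tumor WT interval overlapped them. This gap depended on the gate. After thinning to 1500 UMIs the share among cells with a Cd3 UMI was 4.96% in tumor KO (2.02% to 9.96%). In normal KO it was then 5.31% (4.23% to 6.56%), and the intervals overlapped. With at least 2 Cd4 UMIs they overlapped too, at 2.16% in tumor KO (0.703% to 4.96%) and 5.09% in normal KO (4.12% to 6.21%). Under the other alternative filters they stayed apart. Among all cells, the thinned rule left 80 normal KO and 133 normal WT members. The normal lungs then separated, at 1.74% in KO (1.38% to 2.16%) and 2.58% in WT (2.17% to 3.05%). Since a share is relative to all other sorted cells, fewer T cells and more cells of other types cannot be told apart.

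**Figure D1:**
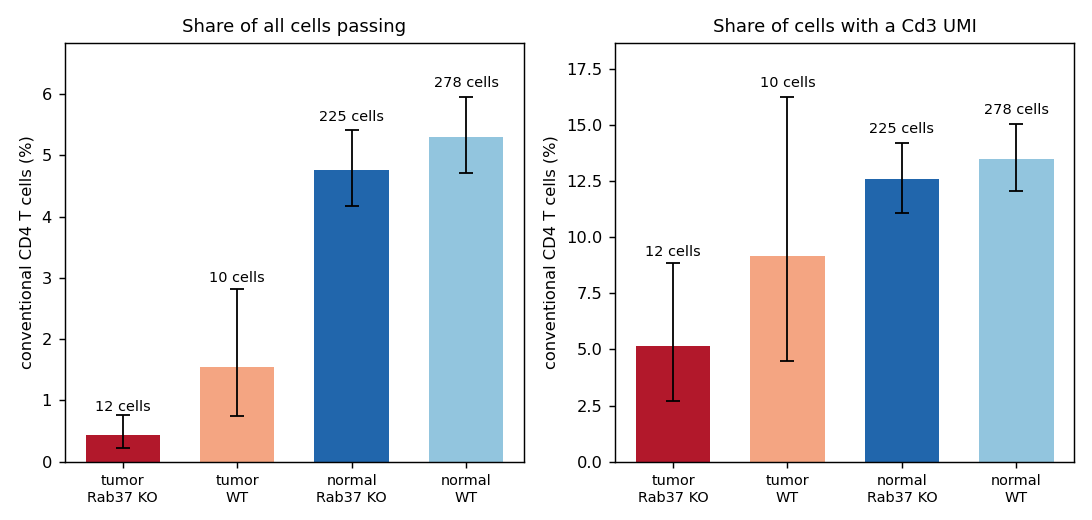
Conventional CD4 T cells as a percent of all cells passing the filter (left) and of cells with a Cd3 UMI (right) in each library; bars are shares, lines exact 95% intervals from counting alone, and numbers above are member cells. The tumor KO bar is the lowest in both panels (0.440% and 5.17%), and the intervals of the 2 normal lung bars overlap.

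The members formed a mixture of lymph node homing, memory and helper states. After thinning to 1500 UMIs, a UMI of Ccr7 or of Lef1, a transcription factor of naive T cells, was found in 41.7% of tumor KO members, 20.0% of tumor WT, 53.8% of normal KO and 46.4% of normal WT. B cells, which also use Ccr7, had 26.8% to 60.1%. Type 1 genes (the transcription factor Tbx21, the cytokine Ifng and the chemokine receptor Cxcr3) were found in 16.7%, 40.0%, 15.1% and 14.0%, against 1.06% or less of B cells. Genes shared with regulatory cells (Il2ra, Ctla4, Ikzf2) were found in 50%, 40.0%, 23.1% and 24.8%, and in at most 2.13% of B cells. Every member had 0 Foxp3 UMIs by the rule. Regulatory cells with no Foxp3 UMI captured would meet it too, and their part was not tested. Type 17 genes (Il17a, Il17f, Il23r) were seen in 1.33% of normal KO members (0.276% to 3.85%) and 3.60% of normal WT (1.74% to 6.52%). Type 2 genes were seen in 2.67% of normal KO members and 2.52% of normal WT members. Follicular genes (Cxcr5, Bcl6, Il21) were seen in 3.56% and 5.76%, below the 15.3% and 12% of B cells. A UMI of the cell cycle genes Mki67, Top2a or Birc5 was found in 8.33% of tumor KO members (1 of 12) and 10.0% of tumor WT (1 of 10). In normal KO and normal WT members it was found in 8.89% and 7.19%. B cells had 2.13%, 3.57%, 2.64% and 2.91% in tumor KO, tumor WT, normal KO and normal WT.

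**Figure D2:**
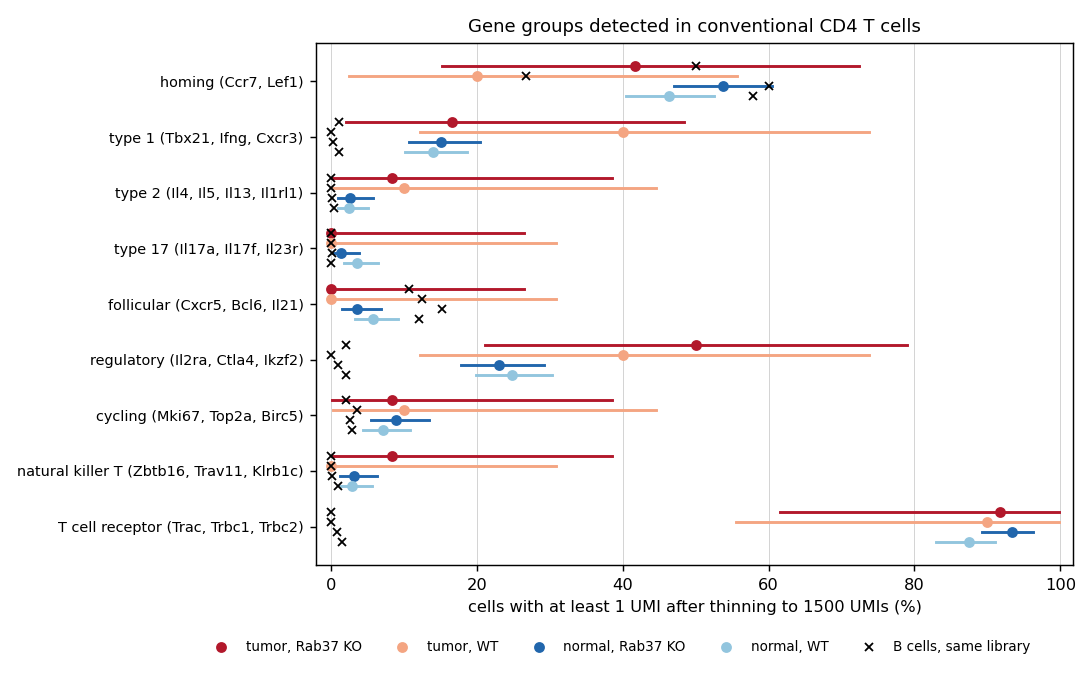
Percent of conventional CD4 T cells with at least 1 UMI of each gene group after thinning to 1500 UMIs, by library (points, with exact 95% intervals from counting alone), and of B cells of the same library (crosses). T cell receptor genes are found in 87.4% to 93.3% of members, and the tumor intervals (12 and 10 cells) are wide.

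Single genes showed the same mixture. Icos, a costimulatory receptor of activated helper cells, had a UMI in 32.9% of thinned normal KO members and 32.7% of normal WT members, against 0% and 0.132% of B cells. Rora, a nuclear receptor of memory and type 17 cells, was found in 28.4% of normal KO members and 33.8% of normal WT members, against 0.294% and 0.794% of B cells, and CD40 ligand (Cd40lg) in 19.6% and 16.5%, against 0% of B cells in both. Ccr7 was found in 28.9% of normal KO members and 25.2% of normal WT members, against 60.1% and 57.3% of B cells. S100a4, raised in memory T cells, was found in 25.8% and 27%. The chemokine receptors Cxcr3 and Cxcr6 were found in 10.2% and 11.1% of normal KO members and in 7.19% and 9.71% of normal WT members. Helper cytokine transcripts were rare. Il2 had 28 UMIs in 24 normal KO members and 26 in 20 normal WT members, while Il4 had 2 and 9 UMIs, Il21 had 4 and 10, and Il22 had 4 and 12 in normal KO and normal WT.

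Foxp3-positive cells met the rest of the rule but had a Foxp3 UMI. Set against them, conventional CD4 T cells were lower in the genes of regulatory identity. They were higher in Igfbp4, CD40 ligand and some ribosomal protein genes. The contrast rests on the normal lungs (225 and 278 members, against 18 and 15 Foxp3-positive cells), since the tumor Foxp3-positive profiles held under 10 cells. Summed profiles were compared by edgeR's quasi-likelihood test with the library as a block. The fit held 10 profiles of conventional, Foxp3-positive and CD8 T cells, tumor libraries included, and left 4 residual degrees of freedom. The spread behind its SEs and p-values therefore also comes from CD8 T cells and from tumor, not from the normal lungs alone. P-values from edgeR here measure only the spread between these libraries, which may be technical. Of 2946 genes tested, 33 were higher (1.12%) and 17 lower (0.577%) in conventional cells, and 375 passed an unadjusted p of 0.05. Of the 33 higher genes 28 were ribosomal protein genes, a group chosen after its values were seen. Of 9 tested genes of the list associated with regulatory cells, 7 were lower and 0 higher, with a median log2 fold change of -2.14 against 0.00 over all genes. Ikzf2, the transcription factor Helios, had 96.7 and 102 CPM in conventional cells of normal KO and WT lung, against 874 and 1012 CPM in Foxp3-positive cells (log2 fold change -3.19, SE 0.35, adjusted p 0.0062, edgeR). Ctla4, an inhibitory receptor, had 163 and 209 CPM in conventional cells, against 931 and 741 CPM in Foxp3-positive cells (-2.03, SE 0.28, adjusted p 0.0082, edgeR). For both genes every conventional profile lay under every Foxp3-positive one.

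TNF receptors of the costimulatory family followed the same direction. Tnfrsf4 (OX40) had 114 and 164 CPM in conventional cells, against 818 and 563 CPM in Foxp3-positive cells (-2.14, adjusted p 0.027, edgeR). Tnfrsf18 (GITR) had 88.0 and 94.5 CPM against 289 and 417 CPM (-1.75, adjusted p 0.009, edgeR), and Tnfrsf9 (4-1BB) had 7.33 and 10.1 CPM against 233 and 136 CPM (-4.10, adjusted p 0.0082, edgeR). Lrrc32 (-3.85), which anchors latent TGF-beta, and the transcription factor Ikzf4 (-3.34) were lower too. Outside the list, the folate receptor family gene Izumo1r was lower (-1.40), and the chemokine receptor Ccr2 had 61.6 and 91.8 CPM in conventional cells, against 345 and 292 CPM in Foxp3-positive cells (-1.98). The transcription regulator Hopx had 134 and 128 CPM, against 545 and 553 CPM (-2.02), and the glutaredoxin Glrx (-2.32) and the interleukin-33 receptor Il1rl1 (-2.79) were also lower.

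Fewer named genes were higher in conventional cells. Cd40lg had 121 and 124 CPM in conventional cells of KO and WT lung, against 0 and 10.4 CPM in Foxp3-positive cells (adjusted p 0.038, edgeR). Igfbp4, a secreted binding protein found in naive T cells, had 133 and 95.9 CPM in conventional cells and 0 UMIs in both Foxp3-positive profiles, so it was at least 8.34-fold higher over the 2 libraries (floor of 3 counts for the group, adjusted p 0.0094, edgeR). The phosphodiesterase Pde3b had 112 and 133 CPM, against 16.0 and 0 CPM (adjusted p 0.015, edgeR). The heat shock cochaperone Dnajb1 (1.09) and the translation factor Eef1a1 (0.49) were higher by smaller amounts. Igfbp4 was the 1 gene of 13 on the naive and homing list to pass, and of the 18 memory and effector genes 0 passed in either direction. Over all tested genes 1.12% were higher and 0.577% lower. Ribosomal protein genes, chosen after their values were seen, were higher in 28 of 88 cases and lower in 0. Among 16 of the genes named for this contrast all kept their direction, but 6 lost their call with DESeq2 and 5 with DESeq2 size factors. Most lost it with 1 normal library left out, which leaves 1 Foxp3-positive profile. Ikzf2 kept its call in all 9 alternatives, while Cd40lg and Tnfrsf9 lost theirs in 4 of 9. Il1rl1 lost its call in 5 of 9, with a log2 fold change as small as -0.56. The count of genes also depended on single libraries. Without normal WT, 1 gene was higher and 9 lower, and without normal KO, 2 and 6. Without tumor WT, 115 were higher and 56 lower of 7574 tested, and without tumor KO, 79 and 42 of 7587.

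Against CD8 T cells, which had a Cd8a or Cd8b1 UMI and no Cd4 UMI, conventional CD4 T cells were higher in helper, costimulatory and memory genes and lower in cytotoxic and homing genes. All 4 libraries gave a profile of each (12, 10, 225 and 278 members, against 30, 10, 682 and 680 CD8 T cells in tumor KO, tumor WT, normal KO and normal WT). Of 2946 genes tested, 124 were higher (4.21%) and 142 lower (4.82%), and 596 passed an unadjusted p of 0.05. Of the 142 lower genes 67 were ribosomal protein genes. Cd40lg led the higher genes. It had 69.5, 70.8, 121 and 124 CPM in conventional cells of tumor KO, tumor WT, normal KO and normal WT, against 5.17, 25.3, 2.16 and 6.54 CPM in CD8 T cells (log2 fold change 4.51, SE 0.32, adjusted p 4.1e-05, edgeR). Tnfrsf4 had 375, 99.1, 114 and 164 CPM, against 0, 0, 5.18 and 11.6 CPM in CD8 T cells (4.04, SE 0.40, adjusted p 0.00015, edgeR). In both genes all 4 conventional profiles lay above all 4 CD8 profiles.

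Transcription factors of helper cells followed. Maf, which acts in follicular and interleukin-10 producing helper cells, had 334, 184, 254 and 302 CPM in conventional cells, against 109, 0, 14.0 and 21.8 CPM in CD8 T cells (3.28, SE 0.46, adjusted p 0.0014, edgeR). Rora had 612, 198, 397 and 385 CPM, against 228, 25.3, 67.3 and 61.3 CPM (2.11, SE 0.22, adjusted p 0.00023, edgeR). Gata3, the factor of type 2 helper cells, had 111, 156, 121 and 93.8 CPM, against 67.2, 0, 34.5 and 28.6 CPM (1.48, SE 0.19, adjusted p 0.00075, edgeR). For Rora the tumor KO CD8 profile lay above the tumor WT conventional one, so the groups overlapped across libraries while each library showed the same direction. All tumor WT conventional values of this contrast include the cell of 39328 UMIs, which holds 55.7% of that profile. No tumor WT value of this contrast was computed without that cell. With the tumor WT library left out, 0 of 25 named genes followed across settings lost their call. Other genes higher in every library were the calcitonin receptor partner Ramp3 (2.91), Tmem64 (2.76), Izumo1r (2.56), Icos (1.90), Ctla4 (1.78), Capg (1.78), Ly6a (1.64), the hypoxia factor Hif1a (1.57), the integrin chain Itgb1 (1.46) and Cd5 (1.20), a damper of T cell receptor signals. Cxcr3 was higher in 3 of 4 libraries (0.95, adjusted p 0.03, edgeR).

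Over all tested genes 4.21% were higher and 4.82% lower. By list, 4 of 9 costimulatory receptors, 6 of 9 genes associated with regulatory cells, 4 of 9 tissue residence genes, 4 of 13 T cell receptor signalling genes and 3 of 3 type 2 helper genes were higher, with 0 lower in each. The type 2 genes were Gata3, Il1rl1 and the growth factor Areg. Il1rl1 and Areg are also markers of type 2 innate lymphoid cells, of which 2 of 3 tested were higher, and their part in the count was not tested. Areg had 0 UMIs in both tumor libraries, so 2 of 4 libraries showed its direction. The memory and effector list had 6 higher and 1 lower of 18 (median 0.71), and the lower one, Ly6c2 (-3.22), is a surface antigen of memory CD8 T cells. Of 13 naive and homing genes 0 were higher and 4 lower (median -0.60), among them Ccr7 (-0.96). Of 10 cytotoxic genes 0 were higher and 5 lower (median -1.63). Ccl5, a chemokine stored by cytotoxic T cells, had 1683, 679, 1453 and 797 CPM in conventional cells, against 9568, 3240, 2786 and 2518 CPM in CD8 T cells (-2.03, SE 0.46, adjusted p 0.018, edgeR). The killer lectin receptor Klrd1 (-2.24), the transcription factor Eomes (-2.31), Ctsw (-2.01) and Fam241a (-3.48) were lower as well. Of the ribosomal protein genes, 67 of 88 were lower and 0 higher, the opposite direction to that against Foxp3-positive cells. The neutrophil gene S100a8 was higher (3.70, adjusted p 0.0032, edgeR), with 125, 14.2, 180 and 106 CPM in conventional cells, against 20.7, 0, 10.4 and 7.27 CPM in CD8 T cells. Its call was lost in 3 of 10 alternatives, with a log2 fold change down to 0.013 with at least 2 Cd4 UMIs. Without normal WT 40 genes were higher and 60 lower, and without normal KO 32 and 44. Without tumor WT, whose profile holds the cell of 39328 UMIs, the counts were 290 and 269 of 7574 tested, and without tumor KO 275 and 216 of 7587.

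**Figure D3:**
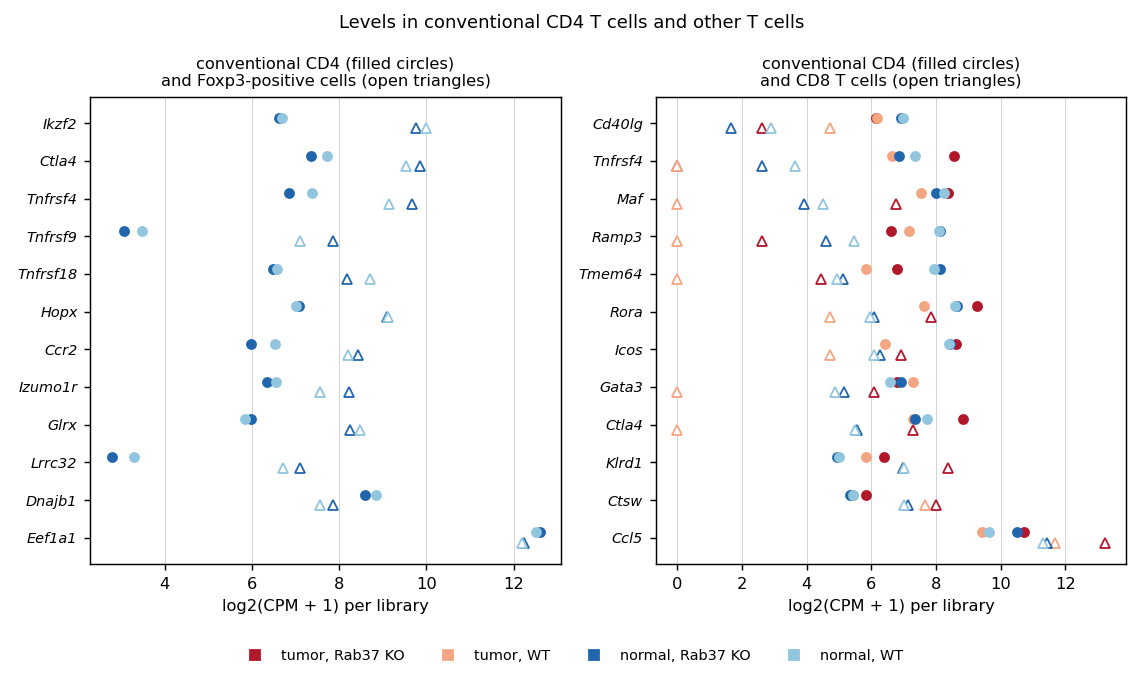
Level of named genes, log2(CPM + 1), in each library's conventional CD4 T cells (filled circles) and in Foxp3-positive cells of normal lung (left, open triangles) or CD8 T cells (right, open triangles); a CPM of 0 sits at 0. Ikzf2 and Ctla4 lie lower in conventional cells on the left, and Cd40lg and Tnfrsf4 lie higher in conventional cells of all 4 libraries on the right.

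Between Rab37 KO and WT normal lung, 9.47% of measured genes passed 2-fold either way in conventional CD4 T cells. Some genes of the type 17, cytokine and other cell type lists were among them. Rab37 itself (ENSMUSG00000020732, plus strand of chromosome 11, 115091431 to 115162236, mm10) had 1 UMI in 1 cell in normal KO members and 25 UMIs in 24 cells in normal WT members. That is 0.733 CPM in KO and 16.9 CPM in WT (ratio 0.0434, 95% interval 0.00106 to 0.265). After thinning, a Rab37 UMI was found in 0 of 225 normal KO members (0% to 1.63%). It was found in 3.24% of normal WT members (1.49% to 6.06%), against 0.529% of normal WT B cells. The KO and WT intervals of these thinned shares overlapped. Of 9200 genes measured, 3.8% were at least 2-fold higher and 5.66% at least 2-fold lower in KO, 9.47% either way. With at least 2 Cd4 UMIs the balance turned, with 7.12% of 7064 genes higher and 4.47% lower. A gene counted as measured where the smaller library would hold at least 5 UMIs of it at equal levels. Against that, 0 of 14 naive and homing, 0 of 18 memory and effector and 0 of 11 tissue residence genes passed 2-fold either way. Nor did any of 13 T cell receptor activation, 13 T cell receptor signalling and 9 costimulatory genes. These 6 were picked from 35 lists, and for lists of 9 to 18 genes each count of 0 lies near the 9.47% share. With at least 10 expected UMIs, 2.29% of 7807 genes were higher and 3.5% lower.

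Within that range differences were small, and with 1 library per group they have no test. The median log2 ratio was 0.15 over the naive and homing list and -0.16 over the memory and effector list, against -0.01 over all genes. Satb1, a chromatin organiser of naive T cells, had 624 CPM in KO and 484 CPM in WT (ratio 1.29), and the actin crosslinker Actn1, Igfbp4 and the repressor Bach2 had ratios of 1.37, 1.38 and 1.43. Cd44 had 168 CPM in KO and 223 CPM in WT (0.753), S100a11 had 475 and 632 CPM (0.752), and Bhlhe40, a factor of activated and resident T cells, 162 and 231 CPM (0.702). Icos was level, with 343 CPM in KO and 338 CPM in WT. Cd28 had 613 CPM in KO and 511 CPM in WT (1.20).

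Other named genes lay on both sides of 2-fold. Rgs1, a gene of the tissue residence list that restrains chemokine receptor signalling, had 377 CPM in KO, in 96 cells, and 697 CPM in WT, in 163 cells (ratio 0.542, 0.487 to 0.603), short of 2-fold. It was lower in KO among Xist-only cells (0.335) and among Y-only cells (0.638). Ccl5 had 1453 CPM in KO and 797 CPM in WT (1.82, 1.69 to 1.96), in 47 and 61 cells. Its direction differed by sex: the KO over WT ratio was 0.664 in Xist-only cells and 4.37 in Y-only cells. Lars2, a mitochondrial leucyl-tRNA synthetase, had 481 CPM in KO and 194 CPM in WT (2.48, 2.16 to 2.86), and the same gap was seen in B cells (484 CPM in KO, 194 in WT) and in CD8 T cells (494 CPM in KO, 187 in WT). Wdr89 had 338 CPM in KO and 217 CPM in WT (1.56).

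Several cytokine and type 17 genes had lower values in KO, from few cells. Of 7 measured type 17 genes 0 were 2-fold higher and 4 lower (median log2 ratio -1.27), and of 13 cytokine genes 1 was higher and 5 lower. Over all 9200 measured genes 3.8% were higher and 5.66% lower, and both lists are among the 35. Il17a, the defining type 17 cytokine, had 21 UMIs in 3 KO cells and 105 UMIs in 11 WT cells (ratio 0.217, 0.129 to 0.349), with 76.2% of the KO UMIs and 33.3% of the WT UMIs in 1 cell. With the rule applied after thinning its log2 ratio turned to 0.36. Il17f had 0 UMIs in KO and 23 in 5 WT cells. Tmem176a, a membrane protein of type 17 cells, had 24.9 CPM in KO and 60.1 CPM in WT (0.415). Ifng had 41.8 CPM in KO and 90.5 CPM in WT (0.462, 0.333 to 0.634). The thinned share of cells with an Ifng UMI was 4.00% in KO and 7.55% in WT. Il1rl1 ran the other way, with 41.8 CPM in 10 KO cells and 12.8 CPM in 6 WT cells (3.26, 1.91 to 5.80), and markers of type 2 innate lymphoid cells, which also carry it, summed to 98.2 CPM in KO and 67.5 CPM in WT. With at least 2 Cd4 UMIs the log2 ratio of Il1rl1 turned to -0.14. Gamma-delta T cell markers, of a lineage that also makes interleukin-17, summed to 31.5 CPM in KO and 10.8 CPM in WT, with Trdc at 0 by the rule. Cell cycle genes had a median of 0.40 with 0 of 10 past 2-fold, and their Top2a had 105 CPM in KO and 64.8 CPM in WT (1.62).

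Genes of other cell types made up part of the list past 2-fold. Over all 9200 measured genes 3.8% were 2-fold higher and 5.66% lower in KO. Of 6 measured dendritic cell markers 0 were higher and 4 lower in KO, of 5 monocyte and macrophage markers 0 and 3, and of 4 epithelial markers 0 and 3. Summed over each list, these came to 983 CPM in KO and 1960 CPM in WT for dendritic cells, 197 and 646 CPM for monocytes and macrophages, and 197 and 3958 CPM for epithelium. H2-Ab1, an MHC class II chain, had 195 CPM in 18 KO cells and 422 CPM in 28 WT cells (0.462), and Lyz2 had 119 CPM in KO and 548 CPM in WT (0.218). Scgb1a1 of airway epithelium had 187 CPM in KO and 3466 CPM in WT, with 86.3% of the WT UMIs in 1 cell. Without cells carrying 3 or more UMIs of other cell types, the log2 ratios became 0.043 for H2-Ab1, -0.13 for Lyz2, -0.79 for Rgs1, 0.94 for Ccl5, -0.34 for Ifng and -0.80 for Top2a. The direction of Lyz2 turned with at least 2 Cd4 UMIs (log2 ratio 0.91), that of H2-Ab1 also with the rule applied after thinning (1.03), and that of Scgb1a1 in Y-only cells (4.62). Spp1, the osteopontin gene, had 103 CPM in KO and 25.0 CPM in WT, with 97.1% of the KO UMIs in 1 cell, and its log2 ratio turned to between -4.28 and -1.96 under 4 alternatives.

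Tumor conventional CD4 T cells of KO mice had lower values of naive and homing genes than those of KO normal lung, and higher values of single genes such as Bhlhe40, Nfkbia and Cd69. Of 1841 genes measured, 5.76% were at least 2-fold higher and 8.2% at least 2-fold lower in tumor. Of 13 naive and homing genes 0 were higher and 9 lower (median log2 ratio -1.42, against 0.06 over all genes). Without the largest cell of each library 0 of 12 were higher and 7 lower (median -1.36), where 5.3% of 1528 genes were higher and 8.97% lower. Lef1 had 111 CPM in tumor KO and 398 CPM in normal KO (ratio 0.280, 0.120 to 0.555). Ccr7 had 111 CPM in tumor KO and 297 CPM in normal KO (0.375), and S1pr1, the receptor for exit from tissue, 139 and 413 CPM (0.337). Gimap4, a GTPase of lymphocyte survival, had 83.4 CPM in tumor KO and 307 CPM in normal KO (0.272), and the kinase Txk 69.5 and 222 CPM (0.313). Each of these rests on few tumor UMIs.

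Among the higher genes, Bhlhe40 had 723 CPM in tumor KO, in 7 of 12 cells, and 162 CPM in normal KO (ratio 4.46, 3.23 to 6.06). Nfkbia, the NF-kB inhibitor that NF-kB induces, had 1585 CPM in 11 tumor KO cells and 388 CPM in normal KO (4.08), and Cd69, an activation and residence marker, 709 CPM in 11 cells and 235 CPM (3.01). Without the largest cells the ratios of Bhlhe40, Nfkbia and Cd69 were 3.97, 4.05 and 3.43. Il18r1, a receptor chain for interleukin-18, had 306 CPM in tumor KO and 66.0 CPM in normal KO (4.64), Phlda1 had 348 and 74.0 CPM (4.70), and Id2, a regulator of effector cells, 932 and 373 CPM (2.50). Gadd45b had 765 CPM in tumor KO and 162 CPM in normal KO (4.72, and 2.98 without the largest cells). Of 7 measured T cell receptor activation genes 2 were 2-fold higher and 0 lower (median log2 ratio 0.25), which became 1 and 0 of 5 without the largest cells. The shares over all measured genes were 5.76% higher and 8.2% lower, and 5.3% and 8.97% without the largest cells. Ifng had 28 UMIs in 3 tumor KO cells, 389 CPM against 41.8 CPM in normal KO, and was too low to count as measured.

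Of 5 measured genes associated with regulatory cells 4 were higher and 1 lower in tumor KO (3 and 1 without the largest cells). Over all 1841 measured genes 5.76% were higher and 8.2% lower, and without the largest cells 5.3% and 8.97% of 1528. Ctla4 had 459 CPM in tumor KO and 163 CPM in normal KO (2.81), Capg 278 and 79.9 CPM (3.48), Tnfrsf4 375 and 114 CPM (3.28, and 1.83 without the largest cells) and Tnfrsf18 236 and 88.0 CPM (2.69). Ikzf2, which marks regulatory cells, was the lower one, with 27.8 CPM in tumor KO and 96.7 CPM in normal KO (0.287). The log2 ratio of Ikzf2 turned to 1.29 with the rule applied after thinning, which left 7 tumor KO members, and that of Tnfrsf18 to -0.63 without cells carrying 3 or more UMIs of other cell types. Of 8 tissue residence genes 4 were higher and 0 lower (3 and 0 without the largest cells). Cell cycle genes, at 3 higher and 0 lower of 9, became 0 and 1 of 7 without the largest cells, and hypoxia and glycolysis genes, at 4 and 0 of 8, became 2 and 0 of 7. Of 13 T cell receptor signalling genes 0 were 2-fold higher and 0 lower.

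Several myeloid genes also had higher values in tumor KO members. Cxcl2, a neutrophil attractant of macrophages and neutrophils, had 1126 CPM in 9 of 12 cells in tumor KO and 212 CPM in normal KO (5.32). Thbs1 had 515 CPM in 4 tumor KO cells and 50.6 CPM in normal KO (10.2). With at most 5% mitochondrial UMIs per cell the log2 ratios turned to -1.24 for Cxcl2 and -1.99 for Thbs1. Cst3, a cystatin abundant in dendritic cells and macrophages, had 3198 CPM in tumor KO and 472 CPM in normal KO (6.78), with 91.7% of the tumor UMIs in 1 cell that was not the largest, and its log2 ratio turned to -0.63 without cells carrying other cell types' UMIs. Dendritic cell markers summed to 2642 CPM in tumor KO and 983 CPM in normal KO, and 8 of the 12 members carried 3 or more UMIs of other cell types. NK cell markers summed to 319.8 CPM in tumor KO and 63.0 CPM in normal KO. Their part in the tumor values was not tested.

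In WT mice, tumor members likewise had lower values of many naive and homing genes, but the large cell moved the list. Of 1810 genes measured, 6.85% were at least 2-fold higher and 17% at least 2-fold lower in tumor WT. Of 11 naive and homing genes 1 was higher and 7 lower (median log2 ratio -1.32, against -0.13 over all genes). Without the largest cell of each library the count was 0 and 3 of 9 (median -0.74, against 0.01), where 8.41% of 749 genes were higher and 10.9% lower. Ccr7 had 1 UMI in tumor WT, 14.2 CPM against 248 CPM in normal WT (ratio 0.0570, 0.00144 to 0.319). Satb1 had 70.8 CPM in tumor WT and 484 CPM in normal WT (0.146, and 0.195 without the largest cells). Klf2, a factor that keeps T cells quiescent and drives S1pr1, had 226 CPM in tumor WT and 1014 CPM in normal WT (0.223, and 0.280). These 3 genes stayed past 2-fold lower with the large cell left out. Several genes that were higher in tumor KO than in normal KO were lower here. Bhlhe40 had 70.8 CPM in tumor WT and 231 CPM in normal WT, and Ctla4 156 and 209 CPM. Tnfrsf4 had 99.1 and 164 CPM and Tnfrsf18 56.6 and 94.5 CPM, while Capg was higher (184 and 95.9 CPM). These tumor WT values include the large cell, and its part in them was not tested.

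Several other WT differences shrank or turned without that cell. Gimap6 had 84.9 CPM in tumor WT and 545 CPM in normal WT (0.156, and 0.346 without the largest cells), and Vps37b 113 and 851 CPM (0.133, and 0.300). S100a6, a calcium-binding protein of memory T cells, had 15883 CPM in tumor WT and 728 CPM in normal WT (21.8), which became 1.94 without the largest cells. Over all measured genes 6.85% were higher and 17% lower, and 8.41% and 10.9% without the largest cells. Of 12 T cell receptor signalling genes 0 were higher and 5 lower, which became 2 and 0 of 9. Of 7 costimulatory genes 0 were higher and 4 lower, which became 0 and 1 of 4. Icos was that one, at 84.9 CPM in tumor WT and 338 CPM in normal WT (0.252, and 0.289). Genes higher with or without the cell included Ahnak, a scaffold protein of memory T cells (906 CPM in tumor WT and 224 CPM in normal WT, 4.04, and 3.64) and Itgb1 (878 and 363 CPM, 2.42, and 2.94). Ifng had 198 CPM in 3 tumor WT cells and 90.5 CPM in normal WT (2.19, and 4.86). Its log2 ratio turned to -0.29 with the rule applied after thinning, which left 5 tumor WT members, and to -0.98 in Xist-only cells.

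**Figure D4:**
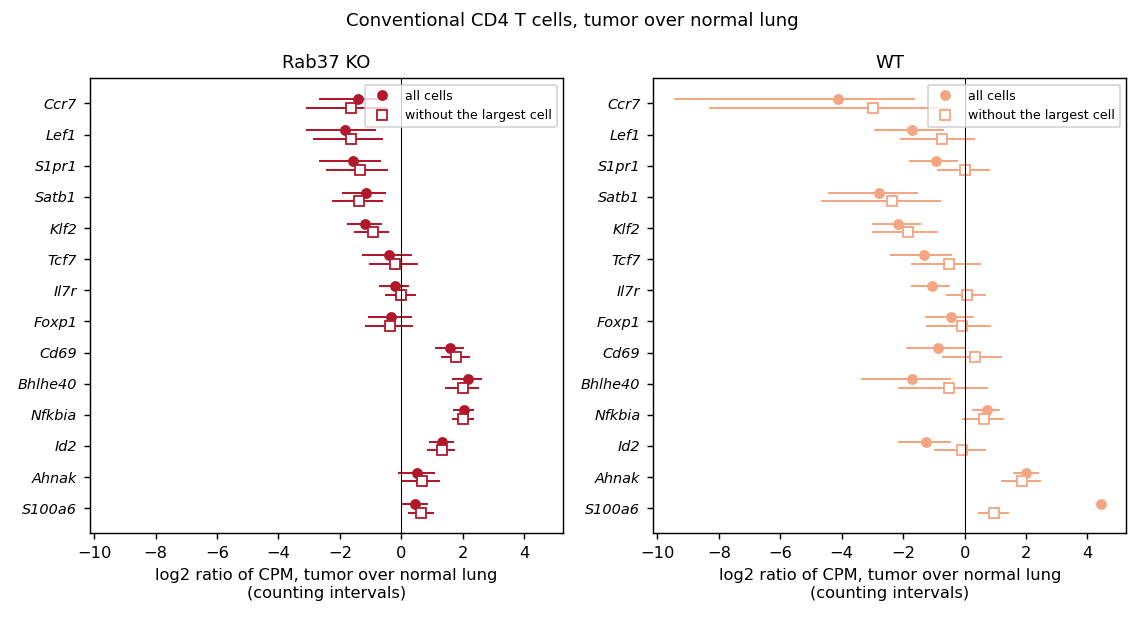
Log2 ratio of CPM, tumor over normal lung, in conventional CD4 T cells of Rab37 KO (left) and WT mice (right); filled points use all cells, open squares leave out the largest cell of each library, and lines are exact 95% intervals from counting alone. Ccr7, Satb1 and Klf2 lie below 0 in both panels, while Cd69 and Bhlhe40 lie above 0 in KO, and S100a6 in WT moves to 1.94-fold without the largest cells.

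The 2 tumor libraries, with 12 KO and 10 WT members, were compared last. Of 2005 genes measured, 17.9% were at least 2-fold higher and 15.4% at least 2-fold lower in tumor KO. Without the largest cells, 11.1% of 875 were higher and 10.3% lower. Bhlhe40 had 723 CPM in tumor KO and 70.8 CPM in tumor WT (ratio 10.2, and 4.16 with an interval of 1.64 to 13.5 without the largest cells). With the rule applied after thinning its log2 ratio turned to -0.25. Crem, a cAMP response repressor of resident T cells, had 445 CPM in tumor KO and 42.5 CPM in tumor WT (10.5, and 9.35 with 1.48 to 390). Cd69 had 709 CPM in tumor KO and 156 CPM in tumor WT (4.55, and 2.36 with 1.21 to 5.03). Icos had 389 CPM in tumor KO and 84.9 CPM in tumor WT (4.58, and 4.50), Gadd45b 765 and 99.1 CPM (7.72, and 5.19), and the phosphatase Ptpn22 403 and 70.8 CPM (5.70, and 3.01). Of 8 tissue residence genes 6 were higher and 0 lower, which became 5 and 2 of 8.

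Several other list counts rested on the largest cells. Over all measured genes 17.9% were 2-fold higher and 15.4% lower in tumor KO, and 11.1% and 10.3% without those cells. All 8 measured cell cycle genes were 2-fold higher in tumor KO, among them Stmn1 (459 CPM in tumor KO, 14.2 in tumor WT) and Top2a (292 CPM in tumor KO, 42.5 in tumor WT), and without those cells 0 of 4 passed in either direction. Of 12 T cell receptor signalling genes 7 were higher and 0 lower, which became 2 and 1 of 11. Naive and homing genes, at 1 higher and 2 lower of 9, did not separate the tumors. S100a6 had 834 CPM in tumor KO and 15883 CPM in tumor WT (0.0525), which became 0.717, and its log2 ratio turned to 0.15 without cells carrying other cell types' UMIs.

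Macrophage genes differed between the tumor libraries with or without the largest cells. All 4 measured monocyte and macrophage markers were 2-fold lower in tumor KO under both, with sums of 459 CPM in tumor KO and 1939 CPM in tumor WT. Over all measured genes 15.4% were 2-fold lower, and 10.3% without the largest cells. Lyz2 had 153 CPM in tumor KO and 722 CPM in tumor WT (0.212, and 0.102 without the largest cells). Apoe had 195 CPM in tumor KO and 595 CPM in tumor WT (0.327, and 0.114). With the rule applied after thinning the log2 ratio of Apoe turned to 1.21. C1qa had 1 UMI in tumor KO, 13.9 CPM against 212 CPM in tumor WT. Cxcl2, another myeloid gene, ran the other way, with 1126 CPM in tumor KO and 28.3 CPM in tumor WT. The part of RNA from other cells in these values was not tested, and sex differs between the tumor libraries as given above.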

How the data were processed

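Each library was deposited as a matrix of whole-number UMI counts for 31053 features, not normalized. The software version was 3.1.0 for both tumor and 3.0.1 for both normal lung libraries, per the file headers. The submitters' processing notes name the genome build mm10. The aligner is not stated in the labels or headers. Barcodes needed 200 or more detected genes and no more than 10% of UMIs from mitochondrial genes, which left 13344 cells. Scrublet doublets were left in, with their removal as an alternative.

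Members' counts were summed per library and given as CPM. Shares have exact Clopper-Pearson 95% intervals, and ratios of 2 libraries exact conditional binomial ones. In ratios a count of 0 was bounded by a floor of 3 counts. UMIs of free RNA are not removed, and intervals and floors cover counting error only. B cells (at least 2 UMIs of Cd79a and Ms4a1, 0 of Cd3) served as background. Cell types within libraries were compared with edgeR 4.0.16 (R 4.3.3), quasi-likelihood test, TMM scaling, filterByExpr, the library as a block, Benjamini-Hochberg adjustment over all genes tested and a threshold of 0.05, leaving out profiles of under 10 cells and the genes of the gates. Alternatives used DESeq2 1.42.0 and those listed with the sensitivity results. On simulated data with 4-fold changes the test recovered 73.0% of changed genes against Foxp3-positive cells and 100.0% against CD8 T cells. False calls were 6.36% and 3.25% of all calls. The simulation gave every gene the same dispersion, had no library or tissue effect, and changed only genes with many UMIs. It therefore cannot show the recovery or false calls in the real libraries. Some genes, and a planned comparison that rests on them, are not reported here.

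Genes named were Rab37, Spp1, Cd44, the genes of the cell shares, the 10 largest ratios each way per comparison (at least 200 CPM and 20 UMIs in the higher library, intervals apart), up to 4 members per list, and by edgeR the 10 largest changes each way past the threshold. Genes of a list named beyond these were chosen after their values were seen. The members and the 35 gene lists were chosen with earlier results of these data known. Scripts ran in Python 3.11.15.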

Additional observations from a re-analysis of the deposited data

Results flagged for a closer look

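For 5 genes the KO over WT ratio of conventional CD4 T cells pointed one way in tumor and the other way in normal lung. With 1 library per group these differences were not tested. The log2 ratio of Cst3 was 2.15 in tumor (230 UMIs in KO, 51 in WT) and -1.10 in normal lung (644 in KO, 1498 in WT). In tumor 91.7% of the KO UMIs were in 1 cell, and outside the cell with most of them in each library 19 UMIs were left in KO and 22 in WT. Ccl4, a chemokine of activated T cells and macrophages, had 2.30 in tumor (15 UMIs in KO, 0 in WT) and -1.98 in normal lung (22 in KO, 94 in WT), and the first value depends on how a count of 0 is treated. Outside 1 cell 3 of the tumor KO UMIs of Ccl4 were left, and in Y-only cells of normal lung its log2 ratio was 2.11. Spp1 had -2.35 in tumor (4 UMIs in KO, 20 in WT) and 2.04 in normal lung (140 in KO, 37 in WT), and without the largest cell of each library the tumor counts were 3 in KO and 6 in WT. In normal KO lung 97.1% of its UMIs were in 1 cell, and the normal lung log2 ratio turned to -2.88, -2.76, -4.28 and -1.96 under 4 alternatives. The matrix genes Dcn (-4.98 in tumor, 4.68 in normal lung) and Col3a1 (-4.25 in tumor, 3.44 in normal lung) had all their tumor UMIs in 1 tumor WT cell, and without it both tumor libraries had 0. Dcn had 71 UMIs in normal KO, all in 1 cell, and 0 in normal WT.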

How the results depend on the processing

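The share of conventional CD4 T cells was lower with a stricter gate. With at least 2 Cd4 UMIs it was 0.183% in tumor KO, 0.309% in tumor WT, 1.93% in normal KO and 1.77% in normal WT. With the gate thinned to 1500 UMIs it was 0.265%, 0.858%, 1.74% and 2.58% in the same order. Without cells with 3 or more UMIs of other types it was 0.147%, 0.773%, 3.79% and 3.87%. Genes 2-fold higher and lower in tumor KO against tumor WT were 359 and 309 of 2005 measured, and became 32 and 14 of 185 with 2 Cd4 UMIs, 149 and 58 of 637 with the thinned gate, 69 and 52 of 428 without cells with other-type UMIs, 97 and 90 of 875 without the largest cells, and 147 and 99 of 943 with at least 10 expected UMIs. In tumor WT against normal WT 124 and 308 of 1810 became 9 and 46 of 156, 39 and 80 of 496, 21 and 45 of 329, 63 and 82 of 749, and 34 and 140 of 857 under the same settings, and 206 of 1810 were higher by the mean over cells. In tumor KO against normal KO, 106 and 151 of 1841 became 79 and 100 of 802 with 2 Cd4 UMIs, 274 and 276 of 2058 with the thinned gate, 30 and 33 of 395 without cells with other-type UMIs, and 39 and 50 of 885 with 10 expected UMIs. In normal KO against normal WT, 350 and 521 of 9200 became 503 and 316 of 7064 with 2 Cd4 UMIs, where the balance turned, 299 and 334 of 7945 without cells with other-type UMIs, and 179 and 273 of 7807 with 10 expected UMIs. Against Foxp3-positive cells, leaving out 1 library gave 1 to 115 higher and 6 to 56 lower, DESeq2 59 and 29, no filter 125 and 69, no cells with other-type UMIs 182 and 48, and only the compared gates 97 and 53, while DESeq2 size factors gave 10 higher. Against CD8 T cells, leaving out 1 library gave 32 to 290 higher and 44 to 269 lower, no filter 323 and 313, no cells with other-type UMIs 614 and 486, 2 Cd4 UMIs 527 and 412, and only the compared gates 304 and 260. Several of these fits tested other numbers of genes, and otherwise the cause was not tested. Among single genes 1004 values were labelled the same, 59 lost their edgeR call, 200 moved and 25 reversed. For edgeR values the same means an unchanged direction and call. For ratios and shares it means a value inside the counting interval of the main value. A ratio was labelled reversed only where the gene was past 2-fold in the main setting. In tumor KO against tumor WT the reversed log2 ratios were -0.25 for Bhlhe40, 2.33 for Spp1 and 1.21 for Apoe (thinned gate) and 0.15 for S100a6 (no cells with other-type UMIs). In tumor WT against normal WT Ifng gave -0.29 (thinned gate) and -0.98 (Xist-only cells). In tumor KO against normal KO Thbs1 gave -1.99 and Cxcl2 -1.24 (at most 5% mitochondrial UMIs), Cst3 -0.63 and Tnfrsf18 -0.63 (no cells with other-type UMIs) and Ikzf2 1.29 (thinned gate). In normal KO against normal WT the thinned gate gave -1.88 for Cxcl2, 1.03 for H2-Ab1, 0.36 for Il17a and -2.76 for Spp1, 2 Cd4 UMIs gave -0.14 for Cxcl2, 0.91 for Lyz2, -2.88 for Spp1 and -0.14 for Il1rl1, no cells with other-type UMIs gave -0.035 for Cxcl2, 0.043 for H2-Ab1 and -4.28 for Spp1, Y-only cells gave 4.62 for Scgb1a1 and 2.11 for Ccl4, and Xist-only cells -1.96 for Spp1. Not run was the gate of 2 Cd4 UMIs against Foxp3-positive cells (profiles under 10 cells). No paired analysis was possible because each group has 1 library and the groups share no replicate number that pairs animals. The tumor values rest on 12 member cells in KO and 10 in WT.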
